A study of Mus musculus with 67 samples.

Results

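The genes described here form a set of 87 rows that were higher with thapsigargin plus PDBu and lower with lipopolysaccharide in wild-type microglia cultures. They were chosen by measured values among the 45707 rows of a count table. For each row, log2(CPM + 1) was averaged over the wild-type culture libraries of each treatment, where CPM stands for a row's count relative to the total of its library. A row was kept if the mean with Tg+PDBu was at least 1 above vehicle and the mean with LPS at least 1 below it. Of the rows that met both limits, up to 150 with the widest gap were to be taken, and since 87 met them, all were. The tables as used here identify genes by position, so each row is given by its number counted from the first row, and no gene name, marker or sequence could be tied to it.

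The study measured RNA in mouse microglia, the resident macrophages of the brain, with and without the calcium channel gene Orai1. All animals carried floxed Orai1 alleles (Orai1fl/fl). The KO animals carried in addition a Cre recombinase that is activated by tamoxifen and driven from Cx3cr1, a gene active in microglia and other macrophages. WT animals had no Cre, so the Cre allele and the loss of Orai1 cannot be told apart as sources of a genotype difference. Cultures of both genotypes were grown from the hippocampus of pups at postnatal day 2 to 5 and received 1 µM hydroxytamoxifen. They then received DMSO vehicle, Tg at 0.2 µM with PDBu at 50 nM, or LPS at 10 ng/ml for 6 h. Adult microglia of both genotypes were sorted from whole brain at 10 to 12 weeks of age. These mice had received tamoxifen 30 to 35 days earlier and then an injection of PBS vehicle or of LPS at 1 mg/kg. The sorted LPS groups were taken at 24 h in both sexes and at 6 h in males.

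Orai1 forms the pore of the channel that opens when the calcium store of the endoplasmic reticulum is emptied. Thapsigargin (Tg) blocks the pump that fills this store, so it opens the channel, and the calcium that enters activates calcineurin and the NFAT transcription factors. PDBu, a phorbol ester, activates protein kinase C and acts together with calcium on many immune genes. LPS, from the outer wall of bacteria, acts on Toll-like receptor 4 and sets off NF-kB and interferon signalling in microglia. The rows described here were chosen because their RNA moved in opposite directions with the 2 stimuli.

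There were 34 culture libraries. Each genotype and sex had 3 per treatment, but KO females had 2 for each stimulus. The 33 sorted libraries formed 10 groups of 3 or 4. Depth was 7868694 to 16070721 counts per library in culture and 4989974 to 7596706 in sorted cells. All 87 rows had enough counts to be tested in culture, where 15979 rows were tested. In sorted cells 82 of the 87 were tested among 15344 rows, and the other 5 had counts but fell below the filter. The loss of Orai1 itself could not be read, because no row is tied to a name. Row 1 of the table had 0 counts in every WT culture, and in KO cultures 75 to 197 with vehicle, 28 to 56 with LPS and 0 to 4 with Tg+PDBu. In sorted cells it had at most 2 counts in WT and 505 to 1642 in KO. It therefore does not check the labels of the KO cultures with Tg+PDBu, and in no library does it show that Orai1 was lost. Nothing in the labels says whether sorted libraries came from single mice, so p-values measure the spread between these libraries.

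Some libraries stood apart. WT female culture 3, which gave 3 of the libraries that chose the rows, held 2 rows otherwise seen in male cultures at 0.386 to 0.563 of the male level, against at most 0.0414 in the other 13 female libraries. Without that culture 104 rows met the limits, and 86 of them were among the 87. In the sorted table, 1 of the 3 libraries labelled LPS 6 h in each genotype lay close to vehicle. The distance of a library from the vehicle libraries of its genotype and sex was taken as the root mean square difference in log2(CPM + 1) over the 15344 tested rows. It was 0.603 for WT male LPS 6 h replicate 3, against 0.92 and 0.955 for WT replicates 1 and 2 and 0.565 to 0.628 for the 3 WT male vehicle libraries measured against each other. For KO male LPS 6 h replicate 1 it was 0.62, against 0.893 and 0.918 for KO replicates 2 and 3 and 0.661 to 0.814 for the KO male vehicle libraries. The 6 h results are therefore given with and without these 2 libraries, which were singled out after their values were seen. At 24 h, WT male replicate 2 was the nearest to vehicle, at 0.674 against 0.727 to 0.889 for the other 14 libraries. Without it 13 of the chosen rows rose and 11 fell in WT. The share of all tested rows called in that fit is not given here, so this count is no result about the chosen rows. With all libraries 11 of 82 rose and 12 fell, against 14.1% and 11.9% of all tested rows.

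**Figure D1:**
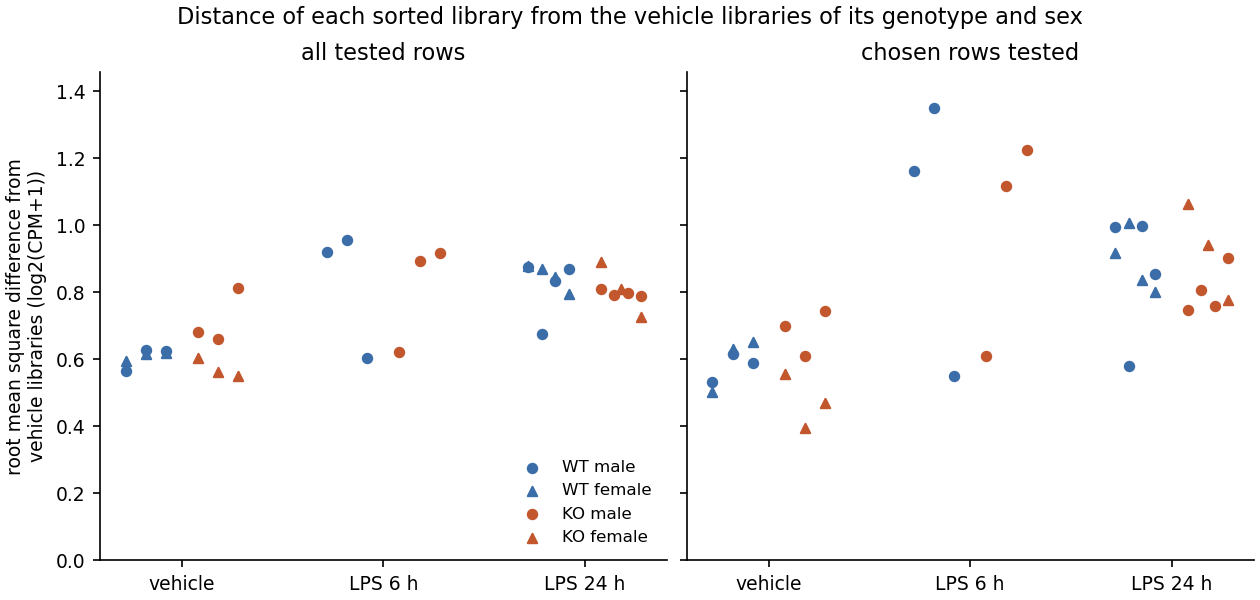
Root mean square difference in log2(CPM + 1) of each sorted library from the vehicle libraries of its genotype and sex (y axis), over all 15344 tested rows (left) and over the 82 chosen rows tested (right). Each point is 1 library, with vehicle libraries measured against the other vehicle libraries of their group; 1 WT and 1 KO point at LPS 6 h sit at 0.603 and 0.62 on the left, level with vehicle; circles are males and triangles females.

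In the WT cultures that chose them, the 87 rows differed in how far each stimulus moved them. The mean with Tg+PDBu was 1.01 to 4.31 above vehicle in log2(CPM + 1), with a median of 1.45, and the mean with LPS was 1.00 to 3.52 below vehicle, with a median difference of -1.43. For 58 rows the difference with Tg+PDBu was the larger, and for 29 the difference with LPS was. The limits were met by few rows together: 961 tested rows were at least 1 higher with Tg+PDBu and 2577 at least 1 lower with LPS, of which the 87 make up 9.05% and 3.38%. Rows 8085 (1.42 with Tg+PDBu and -1.002 with LPS) and 15967 (1.17 and -1.01) lay just inside the limits. Rows 16066 (1.37 and -0.999) and 14974 (4.57 and -0.999) lay just outside. These values and all other WT culture values chose the rows, so they are a description and carry no test.

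**Figure D2:**
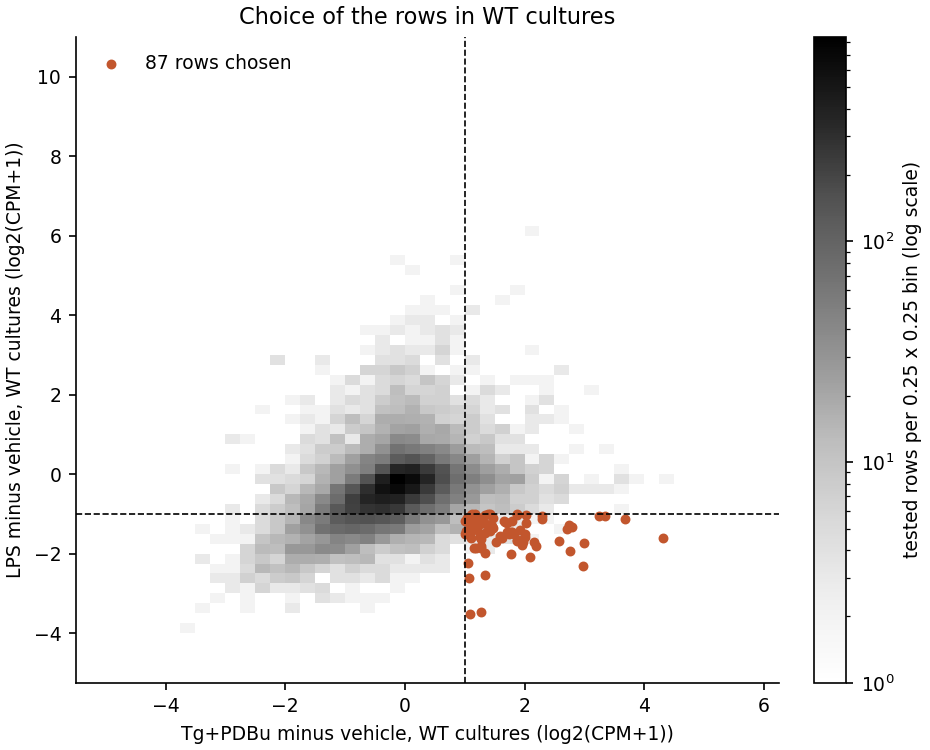
Difference of Tg+PDBu from vehicle (x axis) and of LPS from vehicle (y axis) in the mean log2(CPM + 1) of WT cultures. Grey squares count the 15979 tested rows on a log scale, orange points are the 87 rows, and dashed lines mark the limits of 1 and -1; the points fill the lower right corner, and most of them lie within 2 units of each limit.

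The choice leaned on how the libraries were scaled. With totals as the scale, the median of all tested rows was -0.15 with Tg+PDBu and -0.35 with LPS relative to vehicle. With edgeR's TMM factors, a scale set by the bulk of the genes, the medians of the fitted changes were -0.07 and -0.09. On TMM-scaled CPM 57 rows met the limits, 50 of them among the 87. In the edgeR fit, 87 of the 87 rows were higher with Tg+PDBu (background: 24.1% of the 15979 tested rows) and 85 lower with LPS (background: 26.2%), with medians of 1.64 and -1.08 in log2. Nothing is read from these WT counts.

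The members ranged widely in level. With vehicle, WT cultures held a median of 5.05 in log2(CPM + 1) over the 87 rows, against 4.07 over all tested rows. The CPM summed over the rows was 6963 ± 328 with vehicle (SD, n = 6), 20592 ± 1236 with Tg+PDBu (n = 6) and 2238 ± 282 with LPS (n = 6) in WT. In KO cultures it was 5724 ± 351 with vehicle (n = 6), 12329 ± 726 with Tg+PDBu (n = 5) and 3495 ± 262 with LPS (n = 5). In both genotypes the 3 treatments did not overlap in this sum, and the KO sums with either stimulus lay nearer to vehicle than the WT sums did. The WT sums hold the values that chose the rows. How far the choice accounts for the separation of the WT sums, and for their wider spread than in KO, was not tested.

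**Figure D3:**
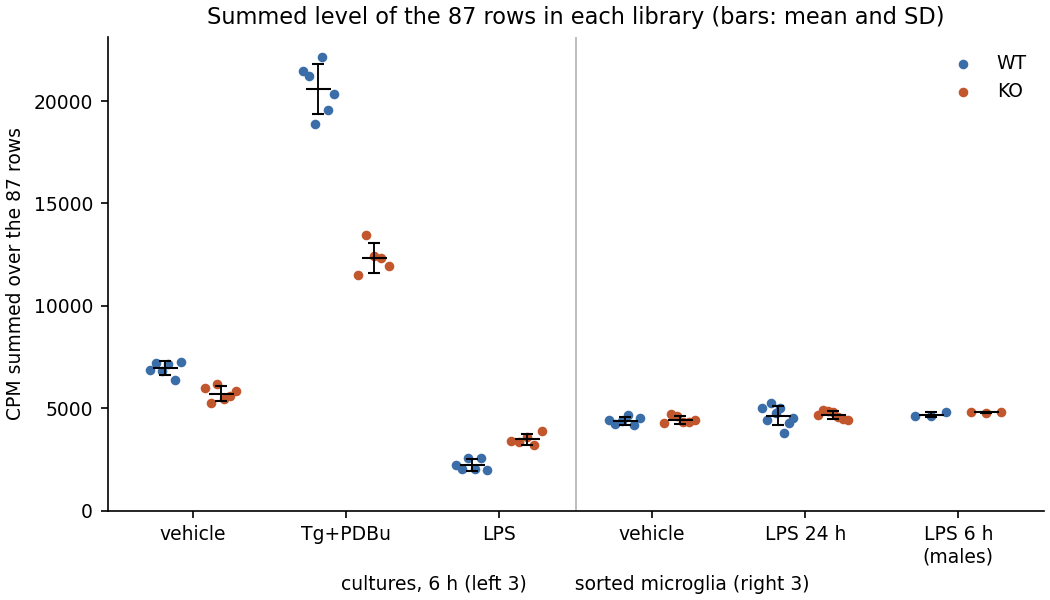
CPM summed over the 87 rows (y axis) in each library, for cultures with vehicle, Tg+PDBu and LPS and for sorted microglia with vehicle, LPS 24 h and LPS 6 h; points are libraries, bars the mean and SD of WT (blue) and KO (orange). The culture treatments separate in both genotypes, from 2238 with LPS to 20592 with Tg+PDBu in WT means, while all sorted groups have means between 4406 and 4808.

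Row 2675 had the widest gap of the set. In WT cultures its CPM was 16.1 to 22.9 with vehicle (median 19.8), 329 to 502 with Tg+PDBu (median 419) and 3.99 to 9.66 with LPS (median 5.46). In KO cultures it was 34.1 to 49.2 with vehicle (median 37.0). The KO libraries with Tg+PDBu held 93.2 and 155 in females and 88.6, 94.6 and 99.3 in males, all above the highest vehicle library. The KO libraries with LPS held 16.5 and 13.5 in females and 21.8, 17.1 and 25.8 in males, all below the lowest vehicle library. So the KO cultures kept both directions, from a higher level with vehicle and to a lower one with Tg+PDBu than WT. The fitted log2 change in KO was 1.39 ± 0.16 (SE) with Tg+PDBu (edgeR adjusted p = 9.23e-08) and -1.11 ± 0.17 with LPS (adjusted p = 1.7e-05).

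Row 16208 was next by gap and had few counts at its lowest level. With LPS, WT cultures held 0.181 to 1.45 CPM (median 0.486), against 4.22 to 19.3 with vehicle (median 6.18) and 24.7 to 126 with Tg+PDBu (median 69.3). KO cultures held 7.71 to 23.9 with vehicle (median 11.3). With Tg+PDBu they held 54.1 and 59.3 in females and 41.3, 42.3 and 31.7 in males, above every vehicle library. With LPS they held 8.03 and 2.41 in females and 2.59, 6.85 and 3.85 in males, and the highest of these lay within the vehicle range. Both KO changes passed the test, at 1.83 ± 0.40 with Tg+PDBu (SE, edgeR adjusted p = 0.000435) and -1.33 ± 0.43 with LPS (adjusted p = 0.0268).

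The KO cultures were not used to choose the rows, and they allow the first test of whether the 2 opposite movements are also seen in libraries labelled KO. With Tg+PDBu, 67 of the 87 rows rose in KO cultures and 2 fell, while 18 did not pass the test. Over all 15979 tested rows, 17.9% rose and 30.9% fell in the same comparison. The median log2 change of the 87 rows was 0.99, against -0.23 over all tested rows. The fitted change was above 0 for 80 rows and ranged from -0.51 to 5.26. For 57 rows every KO library with Tg+PDBu (n = 5) was above every KO vehicle library (n = 6), which held for 16% of all tested rows. Calls are from edgeR's quasi-likelihood test with Benjamini-Hochberg adjustment over all tested rows, at an adjusted p under 0.05.

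Row 5127 had the widest rise of the set in KO cultures. It held 3.21 to 12.7 CPM with vehicle (median 5.94), and with Tg+PDBu 273 and 336 in KO females and 208, 284 and 334 in KO males. The lowest stimulated library was thus far above the highest vehicle library, and the log2 change was 5.26 ± 0.32 (SE, edgeR adjusted p = 1.28e-12). WT cultures with Tg+PDBu held 46.8 to 113 (median 89.2), below every stimulated KO library. Row 9115 behaved alike in both genotypes, with 7.59 to 19.4 CPM with vehicle in KO (median 15.4). With Tg+PDBu its KO libraries held 167, 215, 182, 210 and 199, and its log2 change was 3.70 ± 0.37 (adjusted p = 1.04e-08). WT cultures with Tg+PDBu held 187 to 243 (median 206), a range that overlaps that of KO.

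The other end of the set did not rise in KO cultures. Row 15898 held 184 to 249 CPM with vehicle (median 217) and, with Tg+PDBu, 159 and 170 in KO females and 150, 151 and 146 in KO males. All stimulated libraries lay below all vehicle libraries, and the row fell by 0.51 ± 0.12 on the log2 scale (SE, edgeR adjusted p = 0.00077). In WT the same row was at 149 to 202 with vehicle (median 175) and at 312 to 445 with Tg+PDBu (median 355). Row 8721 also fell in KO, by 0.50 ± 0.21 (adjusted p = 0.0467), from 14.3 to 24.1 CPM with vehicle (median 21.6) to 14.0, 16.2, 13.8, 18.6 and 13.5 with Tg+PDBu. These ranges overlap, and the call was lost in 14 of its 16 alternatives, among them the fit with culture as a replicate block (adjusted p = 0.0846). The adjusted p over those that lost it was 0.0535 to 0.232.

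Row 3326, the row of the set with the highest mean CPM in WT cultures with vehicle and with Tg+PDBu, did not pass the test with Tg+PDBu in KO cultures. In WT it was at 1286 to 1540 CPM with vehicle (median 1420) and 2583 to 4179 with Tg+PDBu (median 3506), where it took 16.8% of the set's summed CPM. In KO it was at 498 to 775 with vehicle (median 657). The stimulated KO libraries held 340 and 940 in females and 511, 608 and 362 in males, so they lay on both sides of vehicle. The fitted change was -0.27 ± 0.23 (SE, edgeR adjusted p = 0.355). Row 5209, second to it in WT cultures with Tg+PDBu, rose in KO from 287 to 387 (median 339) to 593, 686, 618, 618 and 642, a log2 change of 0.84 ± 0.10 (adjusted p = 2.21e-07). Its WT levels were 493 to 589 with vehicle (median 559) and 1175 to 1459 with Tg+PDBu (median 1358).

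**Figure D4:**
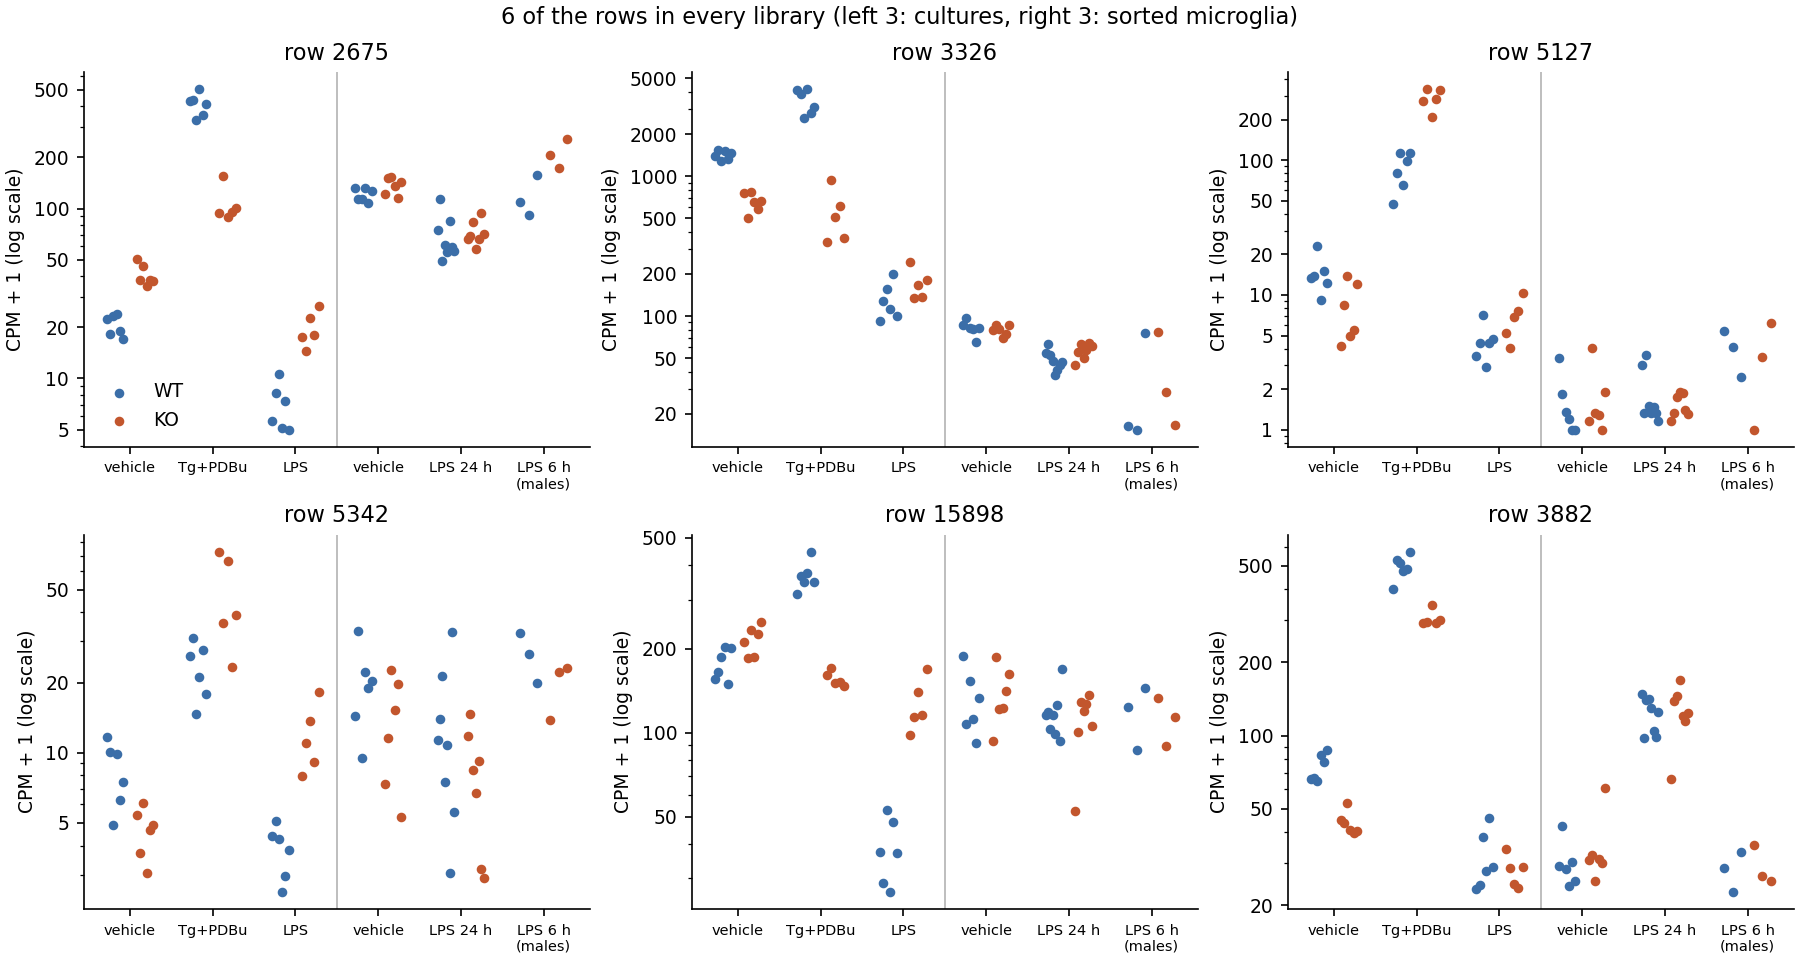
CPM + 1 on a log axis (y) of 6 of the rows in every library, with cultures (vehicle, Tg+PDBu, LPS) on the left of the grey line and sorted microglia (vehicle, LPS 24 h, LPS 6 h) on the right; points are libraries, WT blue and KO orange. Row 5127 is higher in KO than in WT with Tg+PDBu, row 15898 moves in opposite directions in the 2 genotypes, and row 3882 is higher at 24 h in sorted cells.

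With LPS, 54 of the 87 rows fell in KO cultures and 2 rose, while 31 did not pass the test. The background was 14.1% of tested rows lower and 8.71% higher. The median log2 change of the 87 rows was -0.65, against -0.14 over all tested rows, and 82 rows had a change below 0. For 40 rows every KO library with LPS (n = 5) was below every KO vehicle library (n = 6), which held for 11.1% of all tested rows. This comparison shares its vehicle libraries with the one for Tg+PDBu, so the 2 counts are not independent evidence.

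The largest falls with LPS in KO cultures were those of rows 20983 and 3326. Row 20983 held 15.4 to 34.0 CPM with vehicle (median 21.1), and with LPS 2.82 and 3.30 in KO females and 1.92, 2.46 and 6.87 in KO males. Every LPS library was below every vehicle library, with a log2 change of -2.75 ± 0.42 (SE, edgeR adjusted p = 1.64e-05). Row 3326 went from the vehicle levels given above to 244, 134, 165, 135 and 180, a change of -1.87 ± 0.25 (adjusted p = 2.21e-06). Its WT libraries with LPS held 91.8 to 199 (median 120), so the genotypes reached overlapping levels from vehicle levels that did not overlap.

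The rows that rose with LPS in KO cultures were 5342 and 4183. Row 5342 held 2.05 to 5.11 CPM with vehicle in KO (median 3.80) and 6.95, 10.0, 12.7, 8.16 and 17.2 with LPS, with no overlap. Its log2 change was 1.52 ± 0.32 (SE, edgeR adjusted p = 0.000916), and the adjusted p stayed under 0.05 in all 16 alternatives. In WT the row was at 3.91 to 10.7 with vehicle (median 7.69) and 1.53 to 4.11 with LPS (median 3.04). Row 4183 rose by 0.49 ± 0.17 (adjusted p = 0.0374), from 37.6 to 67.6 CPM with vehicle (median 54.3) to 54.7, 90.0, 80.8, 60.4 and 86.6. These groups overlap, and the call was lost when any 1 of 7 of the 11 KO libraries was left out (adjusted p 0.0564 to 0.224).

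A direct comparison of the 2 stimuli in KO cultures needs no vehicle library. With Tg+PDBu against LPS, 78 of the 87 rows were higher and 0 lower, against 18.8% and 22.6% of all tested rows. All 87 fitted differences were above 0, although the lowest was 8.19e-05, and the median was 1.76 in log2 against -0.10 over all tested rows. For 74 rows every library with Tg+PDBu (n = 5) was above every library with LPS (n = 5), as it was for 17.9% of tested rows. The largest differences were those of row 5127, at 5.73 ± 0.38 (SE, edgeR adjusted p = 7.65e-12), and row 20983, at 4.30 ± 0.44 (adjusted p = 1.78e-08). Row 15898 was among the 9 rows not called, at 0.28 ± 0.12 (adjusted p = 0.071). The count of 0 lower rows was also found by DESeq2 and in the fit with culture as a replicate block, which gave 77 higher.

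Single cultures that received all 3 treatments showed the same directions for most of the rows. In the 3 such KO cultures, 77, 78 and 79 of the 87 rows were above their own vehicle library with Tg+PDBu, and 74, 80 and 83 were below it with LPS. Both held for 64, 71 and 75 rows (73.6%, 81.6% and 86.2%), against 20.4%, 19.6% and 21.5% of all tested rows. The median difference of the rows was 0.90 to 1.09 with Tg+PDBu and -0.62 to -0.70 with LPS in log2(CPM + 1), against -0.12 to -0.14 and -0.11 to -0.19 over all tested rows of those cultures. In the 6 WT cultures, which chose the rows, the medians were 1.48 to 1.62 and -0.98 to -1.68.

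The 2 genotypes are set side by side without a test, because the WT values chose the rows. Rows chosen for large WT changes tend to show smaller ones in libraries that did not choose them. How much of the differences below goes with genotype therefore cannot be told. In the edgeR fit 74 of the 87 rows had the larger rise with Tg+PDBu in WT, and the median difference of the log2 change, KO minus WT, was -0.84. With LPS 76 rows had the larger fall in WT, with a median difference of 0.42. By level, 45 rows were higher in KO than in WT with vehicle, 25 with Tg+PDBu and 73 with LPS. Over all tested rows 62.9%, 70.9% and 78.5% were higher in KO in the same 3 conditions. The median of KO minus WT in log2(CPM + 1) was 0.04 with vehicle, -0.66 with Tg+PDBu and 0.87 with LPS for the 87 rows, and 0.16, 0.31 and 0.49 for all tested rows. The order of the rows was partly shared between genotypes: across the 87 rows, Spearman's rho between the WT and KO changes was 0.447 for Tg+PDBu and 0.463 for LPS. Rows measured in the same libraries are not independent, so these are descriptions.

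**Figure D5:**
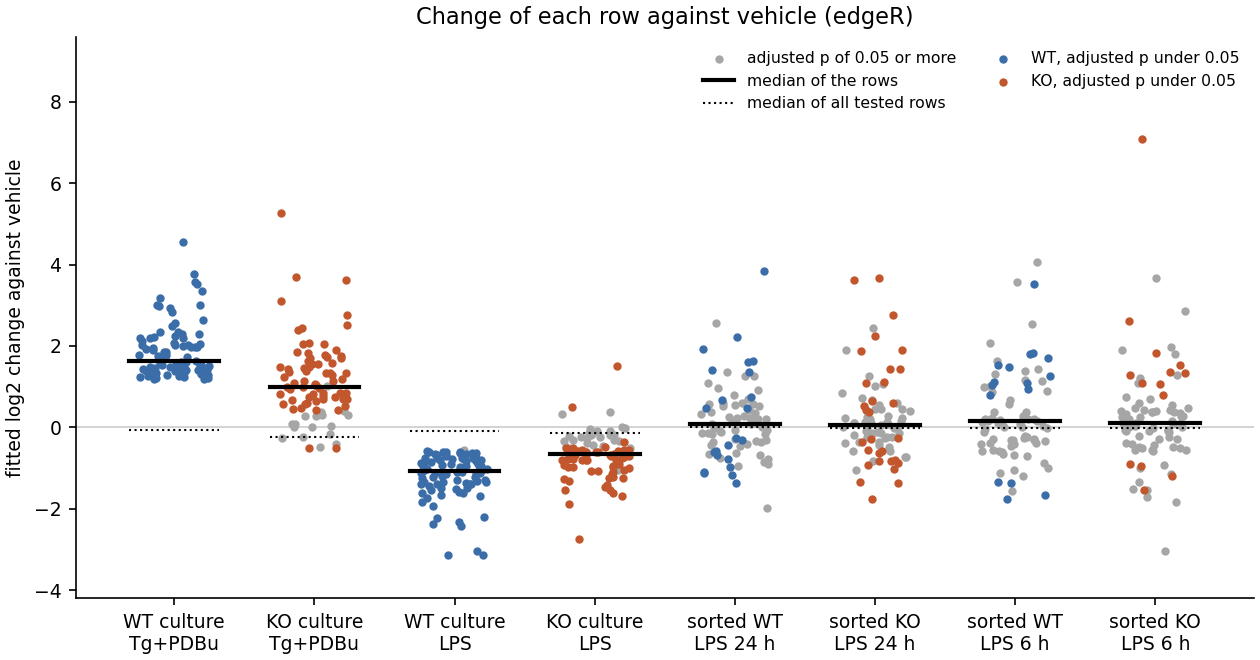
Fitted log2 change against vehicle (y axis) of each of the 87 rows in culture and 82 in sorted microglia, by comparison. Colored points passed an adjusted p of 0.05 (WT blue, KO orange), grey points did not, thick lines are medians of the rows and dotted lines medians of all tested rows; the medians are 0.99 and -0.65 in KO cultures and 0.06 to 0.15 in sorted cells.

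Adult sorted microglia allow the next test, of whether LPS given to the animal lowers the same rows. In sorted WT vehicle libraries the rows had a median of 4.21 in log2(CPM + 1), lower than in culture, against 3.89 over all tested rows. Their levels followed those of WT vehicle cultures less closely (Spearman's rho 0.492) than did all rows tested in both (0.728). As extremes picked out after their values were seen, row 7713 had means of 273 CPM in culture and 0.0223 in sorted cells. Row 13959 went the other way, with 13.9 and 526. The summed CPM of the 87 rows in WT was 4406 ± 196 with vehicle (SD, n = 6), 4643 ± 475 at 24 h (n = 8) and 4691 ± 113 at 6 h (n = 3). In KO it was 4447 ± 188 (n = 6), 4685 ± 186 (n = 7) and 4808 ± 34.5 (n = 3). Row 5216, picked out after its values were seen, held the largest part of this sum at 24 h, 18.4% in WT and 18% in KO. It went from 303 to 435 CPM with vehicle (median 329) to 664 to 1040 at 24 h (median 877) in WT, and from 278 to 529 (median 423) to 597 to 996 (median 865) in KO, with no overlap. Its log2 change was 1.40 ± 0.14 in WT (SE, edgeR adjusted p = 3.79e-08) and 1.11 ± 0.14 in KO (adjusted p = 2.07e-06). Without this row the sum was 4052 ± 195 with vehicle and 3788 ± 368 at 24 h in WT, and 4040 ± 168 and 3843 ± 198 in KO, so the means at 24 h were above vehicle with the row and below it without. Culture and sorted cells differ in age, brain region, preparation, stimulus route and library kit. Cultures had LPS for 6 h, so against the sorted groups at 24 h they differ in time as well. These differences cannot be told apart here. In tissue-derived cells, fewer cells of a type and less RNA per cell cannot be told apart either.

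At 24 h after LPS, the 82 tested rows did not move in 1 direction. In sorted WT cells 11 rose and 12 fell, which are 13.4% and 14.6% of the rows, against a background of 14.1% higher and 11.9% lower. In sorted KO cells 15 rose and 15 fell, 18.3% each, against 12.6% and 10.8%. The median log2 changes were 0.09 in WT and 0.06 in KO, against 0.0030 and -0.010 over all tested rows. Library numbers of these groups fall in 2 runs. Within each run some groups of genotype, sex and treatment held only 1 library. Males and females were split unevenly between the runs, so the counts of the 2 runs are not a like comparison. Within the first run alone 12 of 82 rows rose and 9 fell in WT, against 8.16% and 6.74% of all tested rows, and 13 rose and 10 fell in KO, against 7.3% and 6.56%. Within the second run, where 79 of the rows were tested, 6 rose and 5 fell in WT (background 6.17% and 5.71%) and 4 and 3 in KO (background 3.84% and 3.41%). The KO count of rows that fell was 8 without KO female LPS 24 h replicate 1 (background 8.12%) and 9 without KO female vehicle replicate 3 (background 9.21%). With all libraries the shares in WT were thus near those of all rows and those in KO above them, and the KO share that fell was 9.76% and 11% without the 1 or the other of these libraries. In KO cultures, which had LPS for 6 h, 62.1% of the rows fell. Of the rows called in WT, 10 of the 11 higher and 9 of the 12 lower (90.9% and 75%) were also called in KO, which are 66.7% and 60% of the KO calls. Over all tested rows, 70.8% of the higher and 64.6% of the lower WT calls were also called in KO, which are 79% and 70.9% of the KO calls. The WT and KO libraries are separate, and their changes had a Spearman's rho of 0.858 across the 82 rows and 0.668 across all tested rows.

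Rows 3882 and 5003 rose at 24 h in WT. Row 3882 held 23.0 to 41.4 CPM with vehicle in WT (median 27.6) and 97.0 to 147 at 24 h (median 126), with no overlap. The log2 change was 2.21 ± 0.19 (SE, edgeR adjusted p = 6.17e-09), and in KO it was 1.90 ± 0.19 (adjusted p = 9.12e-08). In KO cultures the same row fell with LPS, by 0.61 ± 0.10 (adjusted p = 8.17e-05). Row 5003 held 0.20 to 1.34 CPM with vehicle in WT (median 0.797) and 3.76 to 19.9 at 24 h (median 8.47), again with no overlap. Its change was 3.85 ± 0.60 in WT (adjusted p = 2.39e-05) and 2.76 ± 0.56 in KO (adjusted p = 0.00055). The WT vehicle libraries held 1 to 9 counts of this row, so its level there is known only roughly. Its KO call was lost within the second run of library numbers, which has fewer libraries. Row 339 rose in KO by 2.23 ± 0.42 (adjusted p = 0.000248), from 1.32 to 5.07 CPM (median 2.64) to 5.63 to 18.0 (median 11.4).

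Rows 14586 and 14699 fell at 24 h in WT. Row 14586 held 63.2 to 87.8 CPM with vehicle (median 82.9) and 21.0 to 38.3 at 24 h (median 32.5), with no overlap, a log2 change of -1.17 ± 0.24 (SE, edgeR adjusted p = 0.000476). Row 14699 held 31.7 to 63.5 with vehicle (median 41.0) and 5.87 to 35.6 at 24 h (median 15). Its change was -1.36 ± 0.41 in WT (adjusted p = 0.0138) and -1.77 ± 0.43 in KO (adjusted p = 0.00317). Both rows also fell with LPS in KO cultures, by 0.51 ± 0.16 (adjusted p = 0.0223) and 0.71 ± 0.24 (adjusted p = 0.0331). The 24 h call on row 14699 was lost in both genotypes within the second run of library numbers, which has fewer libraries. Row 11944 fell in KO sorted cells by 1.37 ± 0.48 (adjusted p = 0.0379), at 1.64 to 5.25 CPM with vehicle (median 3.53) and 0.444 to 2.10 at 24 h (median 1.28). That call was lost in 14 of 21 alternatives, with an adjusted p of 0.0557 to 0.342 in those. Row 2675, the row with the widest gap in culture, was also lower at 24 h in both genotypes, at -0.69 ± 0.16 in WT (adjusted p = 0.00166) and -0.83 ± 0.16 in KO (adjusted p = 0.000452).

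Set against the cultures, which had LPS for 6 h, the sorted calls at 24 h fell on both sides. Of the 54 rows that fell with LPS in KO cultures, 10 fell and 6 rose at 24 h in sorted WT, which are 18.5% and 11.1% of the 54. From the sorted side, these are 83.3% of the 12 rows that fell and 54.5% of the 11 that rose. For comparison, 14.6% of the 82 chosen rows tested in sorted WT fell and 13.4% rose, and 62.1% of the 87 fell with LPS in KO cultures. The 54 were not limited to rows tested in sorted cells. Shares of these overlaps over all tested rows are not given, so the overlaps are no result about the chosen rows. Across the tested rows, Spearman's rho between the LPS change in KO cultures and that in sorted WT at 24 h was 0.194, close to the 0.218 found over all 13382 rows tested in both tables. Against sorted KO at 24 h it was 0.236, for which no value over all rows is given. These comparisons share no library.

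At 6 h in males, 12 rows rose and 4 fell in WT and 10 rose and 4 fell in KO. The background was 6.73% higher and 3.73% lower in WT, and 4.27% higher and 2.85% lower in KO. Without WT replicate 3, the library near vehicle, 14 rose and 12 fell, against 9.76% and 9.13% of tested rows. Without KO replicate 1, 15 rose and 11 fell, against 7.66% and 7.07%. So the number of rows that fell went from 4 to 12 in WT and from 4 to 11 in KO, and the number of all rows called rose as well. These 6 h comparisons use the male vehicle libraries that also enter the 24 h comparisons, and the 6 h libraries carry library numbers of a series of their own, so the time and that series cannot be told apart.

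The values by library show how the 2 libraries bear on single rows. Row 5209 held 156, 163 and 160 CPM with vehicle in WT males and 21.0, 15 and 193 at 6 h. In KO males it held 196, 165 and 170 with vehicle and 220, 38.5 and 33.2 at 6 h. In each genotype 2 of the 3 libraries at 6 h were far below vehicle and the library named above was not. The row was not called in either (edgeR adjusted p = 0.233 in WT and 0.349 in KO). Row 3326 had the same shape, with 15.4, 14.4 and 74.4 at 6 h in WT and 75.9, 27.6 and 15.8 in KO, against 80.6 to 95.7 and 80.0 to 85.5 with vehicle. At 24 h no library of either genotype was as low as these in row 5209, where WT held 199 to 255 (median 234) and KO 188 to 282 (median 231).

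The rows that led the 6 h calls were 5003, 339 and 6529 among those that rose and 20857, 724 and 5118 among those that fell. Row 5003 held 0.705, 1.17 and 1.34 CPM with vehicle and 13.7, 23.2 and 2.11 at 6 h in WT males, a log2 change of 3.53 ± 0.83 (SE, edgeR adjusted p = 0.0074). In KO males it held 1.23, 1.87 and 3.27 with vehicle and 3.32, 20.1 and 18.9 at 6 h, a change of 2.62 ± 0.78 (adjusted p = 0.04). Row 20857 held 64.0, 43.4 and 58.2 with vehicle and 9.66, 7.73 and 32.6 at 6 h in WT, a change of -1.77 ± 0.43 (adjusted p = 0.009). In KO it held 54.6, 53.5 and 54.6 with vehicle and 37.4, 13.5 and 8.44 at 6 h, a change of -1.53 ± 0.43 (adjusted p = 0.0291). For both rows the library near vehicle was the one that had moved least in its genotype.

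The highest point at 6 h in the plot of changes against vehicle, that of row 44376 in KO, was picked out after its value was seen. The row had a mean log2 CPM of 0.17 in sorted cells, below the level at which rows were named, and its fitted change is too loosely held to be given. Most 6 h calls on named rows depended on single libraries. In KO the calls on rows 5003 and 20857 were each lost when any 1 of 5 of the 6 libraries was left out (adjusted p 0.0726 to 0.175 and 0.0546 to 0.183), and in WT they were lost without 1 and 2 of the 6. Row 339 rose by 1.83 ± 0.58 in WT (SE, edgeR adjusted p = 0.0427), and row 6529 by 1.83 ± 0.45 in KO (adjusted p = 0.0166). Row 724 fell in WT by 1.66 ± 0.52 (adjusted p = 0.0402), from 94.8, 19.0 and 23.3 CPM with vehicle to 11, 15.2 and 19.0. That call was lost without any 1 of 3 libraries, among them the vehicle library at 94.8 (adjusted p = 0.564). Row 5118 fell in KO by 1.21 ± 0.35 (adjusted p = 0.0332), from 36.6, 39.7 and 49.1 to 23.2, 16.2 and 18.0, with no overlap. The calls on rows 339, 6529 and 5118 were each lost without any 1 of 4 of the 6 libraries. When edgeR was fitted to the male groups of each comparison by themselves, none of the 82 rows was called at 6 h in either genotype. The edgeR adjusted p of these named rows was then 0.0894 to 0.22. The share of all tested rows called in that fit is not given here, so this count is no result about the chosen rows.

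Between the genotypes, no row was called in the 3 sorted comparisons made, which did not include 6 h. With vehicle, 0 of 82 rows were called between KO and WT by edgeR (background 0.0261%), with 4 at an unadjusted p under 0.05 and 0 by DESeq2. At 24 h after LPS, 0 were called (background 0.0196%), with 3 at an unadjusted p under 0.05 and 0 by DESeq2. For the difference between KO and WT in the 24 h response, 0 were called (background 0%), with 3 at an unadjusted p under 0.05 and 0 by DESeq2. The fitted difference with vehicle had a median of 0.03 over the rows and ranged from -2.03 to 1.06 in log2. A p above the threshold does not show that the genotypes were alike.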

How the data were processed

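RNA-seq of 67 mouse microglia libraries was used as 2 tables of raw counts per gene, deposited by the authors without gene names. The submitters' processing notes name STAR 2.7.10a, Trim Galore 0.6.7, build GRCm38 and Salmon 1.10.1; per the labels' protocols, culture libraries were made from 100 ng of RNA (NEBNext) and sorted ones from 0.97 ng (SMARTer stranded total RNA). Sample sheets inside the tables call the sorted cells cultured, and the labels were followed. The members, the lists and the tests were chosen with earlier results of these data known. Marker and pathway lists had been drawn up but could not be applied, since rows have no names.

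Each table was fitted whole with edgeR 4.0.16 (R 4.3.3): TMM scaling, filterByExpr (minimum count 10, total 15), a mean per group of genotype, sex, treatment and time, quasi-likelihood F tests with sexes weighted equally, and Benjamini-Hochberg adjustment over all tested rows, called under 0.05. SE is the log2 change divided by the root of F. The test was checked on simulated data. DESeq2 1.42.0 and other scalings, filters and left-out libraries were alternatives. Rows named in the text are those of widest gap, nearest to the limits, highest in WT Tg+PDBu, and at most 2 that rose and 2 that fell per comparison by size of change, with mean log2 CPM from 1 up and the same direction in both sexes; rows 5209 and 3326 at 6 h, and comparisons of these rows elsewhere, were added after their values were seen. Culture numbers pair the libraries of a genotype and sex: deviations from group means correlated at 0.143 to 0.394 in all 12 same-culture KO pairs and 0.118 to 0.526 in all 18 WT pairs. Replicates differed by more than sampling noise in every pair checked.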

Additional observations from a re-analysis of the deposited data

Results flagged for a closer look

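In 220 groups of 4 to 10 libraries, counted over the named rows and the summed level, 32 had 1 library far from the rest. The limit used is passed by about 1 in 20 groups of normally distributed values. CPM values need not be so distributed, and the groups share libraries, so the 32 cannot be set against that rate. In 30 of the 32 groups the library apart was the highest. The distance was judged on CPM and not on a log scale.

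Row 724 had such a library in 5 groups. It reached 99.1 CPM in KO male Tg+PDBu replicate 1, against 9.41 to 18.5 in the other 4, and 41.0 in WT female vehicle replicate 2, against 9.79 to 18.7. It was at 11.7 in KO female LPS replicate 2, against 6.78 to 7.27, and at 7.18 in KO female vehicle replicate 2, against 11.4 to 13.0. In sorted WT cells at 24 h it reached 43.5 in male replicate 4, against 11.1 to 22.9. Its high values thus came from different cultures and animals.

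Among the rows of widest gap in culture, row 2675 reached 154.6 CPM in KO female Tg+PDBu replicate 2, against 88.6 to 99.3. Row 16208 stood at 23.9 in KO female vehicle replicate 1, against 7.71 to 12.7, and at 19.3 in WT male vehicle replicate 1, against 4.22 to 7.28. In sorted KO cells at 24 h row 16208 was at 101.3 in female replicate 1, against 1.03 to 6.16. The same library held row 20857 at 47.9, against 23.0 to 32.9, and row 15898 at 51.2, the lowest of its group, against 99.3 to 135.8.

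In culture, row 8721 stood at 28.7 CPM in WT female vehicle replicate 3, from the culture that held rows otherwise seen in males, against 11.2 to 14.9. Row 3882 was at 344.9 in KO male Tg+PDBu replicate 1, against 289.9 to 298.4. Row 5118 was at 19.9 in WT female LPS replicate 1, against 7.15 to 10.3. With LPS in KO, male replicate 3 held row 14586 at 33.2, against 15.6 to 17.4, and row 20983 at 6.87, against 1.92 to 3.30, and female replicate 1 held row 20857 at 6.84, against 3.08 to 4.07.

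In sorted vehicle libraries, row 3882 was at 60.0 CPM in KO male replicate 3, against 24.3 to 31.2, and at 41.4 in WT male replicate 2, against 23.0 to 29.2. Row 5209 was at 224.0 in WT female replicate 2, against 156.5 to 179.0, and row 6529 at 32.9 in WT male replicate 3, against 7.01 to 11.4. Rows near 0 gave the others: row 5127 at 3.07 in KO male replicate 1 and 2.40 in WT male replicate 1, row 9115 at 0.769 in KO male replicate 1 and 2.00 in WT female replicate 2, and row 20983 at 2.31 in KO male replicate 1.

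At 24 h in sorted cells, row 339 was at 26.5 CPM in WT female replicate 2, against 5.04 to 12.9, and row 6529 at 21.9 in WT female replicate 1, against 9.71 to 14.3. WT male replicate 4 held row 15898 at 167.8, against 92.0 to 124.7, and row 20983 at 5.27, against 0.326 to 2.28. Row 14586 was at 76.0 in KO female replicate 2, against 28.0 to 48.4, and row 14699 at 34.1 in KO female replicate 3, against 7.81 to 17.7.

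Row 15898 moved in opposite directions with Tg+PDBu in the 2 genotypes of culture. Its mean was 155.3 CPM in KO with the stimulus, against 214.5 in KO with vehicle, and 364.2 in WT with the stimulus. The difference between the genotypes was not tested, because the WT values chose the row.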

How the results depend on the processing

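Counts of called rows in this section are given without the share of all tested rows. They show only how a count moved with the setting. Of 413 alternatives to the 21 counts, 359 kept the count within 1.5 times. The members depended most on scaling: 57 rows met the limits on TMM-scaled CPM, and of those 44 rose with Tg+PDBu in KO cultures, 0 rose with LPS and 50 were higher with Tg+PDBu than with LPS. The 2 rows lower with Tg+PDBu in KO became 1 with RLE factors, without the filter, with DESeq2 and in the compared groups alone. With culture as a replicate block, KO cultures gave 68 higher and 2 lower with Tg+PDBu and 57 lower and 2 higher with LPS. Sorted title numbers did not pair libraries (median correlation 0.00077); as a block they changed the 4 rows lower at 6 h in WT to 2 and no other count by over 1.5 times. Within the second run of library numbers, which has fewer libraries, 6 rows rose and 5 fell at 24 h in WT, and in KO 4 rose and 3 fell. Without the filter 9 rows were lower at 24 h in KO. In the compared groups alone the 6 h counts were 0 higher and 0 lower in both genotypes, and DESeq2 gave 7 lower at 6 h in KO.

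Leaving out 1 library at a time gave 81 to 100 rows that met the limits. In KO cultures it gave 61 to 67 higher and 1 to 2 lower with Tg+PDBu, 39 to 52 lower and 1 to 2 higher with LPS, and 73 to 80 higher with Tg+PDBu than with LPS. At 24 h it gave 11 to 14 higher and 10 to 14 lower in WT, and 10 to 15 higher and 8 to 12 lower in KO. At 6 h in WT, 4 to 14 were higher and 1 to 12 lower, the lowest without replicate 2 at 6 h and the highest without replicate 3. At 6 h in KO, 2 to 15 were higher and 0 to 11 lower, the highest without replicate 1. Counts between sorted genotypes were 0 throughout. Of 418 alternatives to 26 calls on named rows, 76 lost the call, none reversed it, and 12 calls were kept in all. Beyond scaling and fewer samples, the causes were not tested. Counts under 10 limit rows such as 5003 in sorted cells.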
